A study of Mus musculus with 2 samples.

Results

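The genes described here are tyrosine hydroxylase (Th) and 8 others of the catecholamine pathway: Ddc, Dbh, Gch1, Pts, Qdpr, Slc18a2, Slc6a2 and Maoa. They were chosen by their place in the pathway and with their TPM values and expected counts in these libraries in view, so their levels are a description and carry no test. All 9 were found by symbol among the 43346 genes with Ensembl identifiers in the deposited tables. TPM is a transcript abundance corrected for transcript length and scaled to the same total in each library, so that levels of different genes can be set side by side. Expected counts are the estimated reads behind it.

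The samples were 2 pools of 30 Purkinje cells, the large GABAergic output neurons of the cerebellar cortex, cut from tissue by laser capture. Both came from adult male mice of the cross B6CASTF1/J, a C57BL/6 by CAST hybrid, at 14 months of age, and no treatment is given. In the labels they are biological replicates 1 and 2 with a shared donor identifier. Whether 1 animal gave both is not said, so the SD below reflects only how these pools varied, and that variation may be technical. The p-values below set the difference between the 2 libraries against counting error only. They hold no term for variation between pools. There is 1 group, so no condition could be compared.

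Tyrosine hydroxylase turns tyrosine into L-DOPA and is the rate-limiting enzyme of catecholamine synthesis. Aromatic amino acid decarboxylase (Ddc) then makes dopamine, and dopamine beta-hydroxylase (Dbh) makes noradrenaline. Tyrosine hydroxylase needs tetrahydrobiopterin, which Gch1 and Pts help to make and Qdpr regenerates. Slc18a2 (VMAT2) loads amines into vesicles, Slc6a2 takes noradrenaline back up and Maoa oxidizes amines. Purkinje cells signal with GABA and are not counted among catecholamine neurons, although subsets of rodent Purkinje cells are known to carry tyrosine hydroxylase.

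Some of the sequences behind these genes are shown first, because the members differ in which letters their start regions hold and because the Th counts fell on a single annotated transcript. RefSeq start-region sequences (GRCm38.p6) were matched for 8 of the 9 members, with 9 start regions in all since Ddc has 2. The 250 bases before the start were searched on both strands for 4 motifs: the cyclic AMP response element TGACGTCA, the TATA box TATAAA, the CCAAT box CCAAT and the GC box GGGCGG, none of which overlap in the regions printed. Capitals mark the matches, and a match on the other strand shows as its reverse complement. The last bases of the Th region lie within exon 1 of Th-201 in GENCODE M21, which places the start slightly further upstream than RefSeq. The regions are those of Th at chr7:142899996-142900245 (minus strand), Gch1 at chr14:47189414-47189663 (minus strand) and Qdpr at chr5:45450230-45450479 (minus strand). They were selected on the members' roles and levels: the enzyme itself, the cofactor gene with almost no counts and the cofactor gene with the highest TPM.
Th: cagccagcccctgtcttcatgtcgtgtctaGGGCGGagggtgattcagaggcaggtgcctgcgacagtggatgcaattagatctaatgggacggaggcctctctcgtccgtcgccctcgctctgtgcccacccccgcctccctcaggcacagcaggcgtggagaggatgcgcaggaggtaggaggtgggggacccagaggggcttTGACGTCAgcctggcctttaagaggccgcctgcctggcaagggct
Gch1: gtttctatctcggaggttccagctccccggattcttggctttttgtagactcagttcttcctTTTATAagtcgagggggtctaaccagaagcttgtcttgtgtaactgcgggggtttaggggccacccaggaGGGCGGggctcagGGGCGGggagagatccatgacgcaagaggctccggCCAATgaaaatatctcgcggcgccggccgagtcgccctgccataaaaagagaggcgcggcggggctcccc
Qdpr: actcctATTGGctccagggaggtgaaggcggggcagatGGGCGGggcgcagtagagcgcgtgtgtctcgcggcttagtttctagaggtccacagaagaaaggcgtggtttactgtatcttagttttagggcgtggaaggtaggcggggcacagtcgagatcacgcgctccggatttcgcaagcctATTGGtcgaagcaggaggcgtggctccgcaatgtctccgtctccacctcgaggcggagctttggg

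The Th region held 1 cyclic AMP response element, which began 45 bases before the start, and 1 GC box. Of all 32851 RefSeq start regions of that length, 1.55% held that 8-base element, against 32.7% with a GC box, 33.8% with a CCAAT box and 12.4% with a TATA box. None of the other 8 member regions held the element on either strand. The Gch1 region held 1 TATA box, 1 CCAAT box and 2 GC boxes, and the Qdpr region held 2 CCAAT boxes and 1 GC box. Qdpr had 21 CpG dinucleotides in its 250 bases, Gch1 and Pts had 17 each and Th had 13, all above the median of 6 over all regions. Dbh had 2, and the Ddc regions had 4 and 1. The low-count Gch1 region thus had as many CpG dinucleotides as that of the well-covered Pts. These are descriptions of letters and say nothing of binding.

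The other sequence is a splice junction found in some of the annotated Th transcripts, and reads across it were not counted here. It joins the last 30 bases of exon 1 of the transcript Th-201 (chr7:142899872-142899901) to the first 30 bases of its exon 2 (chr7:142898161-142898190), read on the minus strand of GRCm38, with exon 2 in capitals. Of the 6 annotated Th transcripts, 2 (Th-201 and Th-204) hold it and 4 do not.
Th-201 junction: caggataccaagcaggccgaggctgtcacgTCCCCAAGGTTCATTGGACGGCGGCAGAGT

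The plot of the members by pool shows 3 genes well above a TPM of 1, Maoa close to it and 5 below it. The members fell into a detected set (Th, Pts, Qdpr, Maoa) and a set under a TPM of 1 in both pools (Ddc, Dbh, Gch1, Slc18a2, Slc6a2). So 4 of the 9 reached a TPM of 1 in each pool, as did 30.3% of the 21474 protein-coding genes. The members' median of mean log2(TPM + 1) was 0.42, and that of all protein-coding genes was 0.29. Since these levels were known when the genes were chosen, the share is given only as a description.

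**Figure D1:**
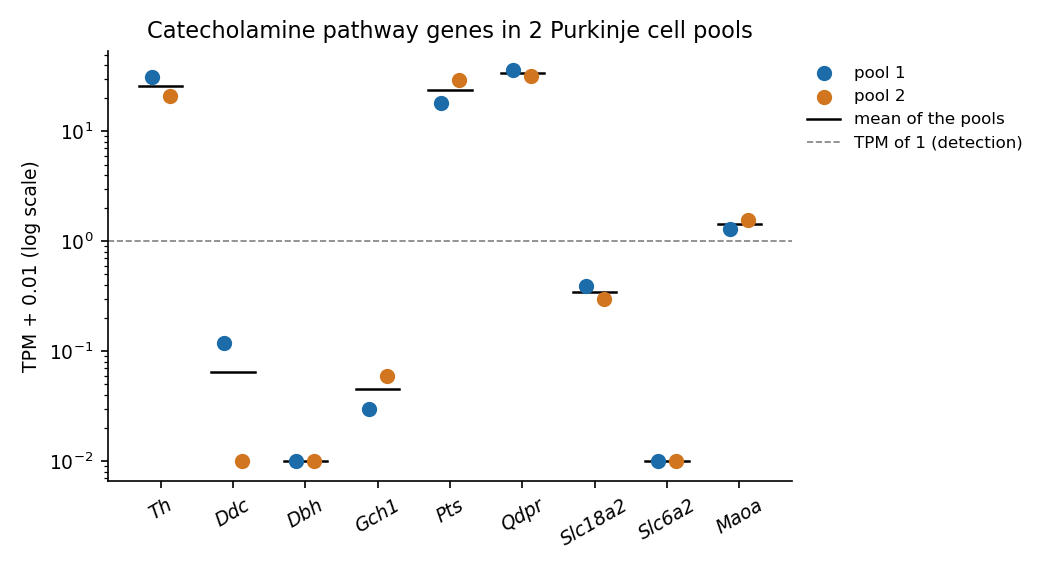
TPM of the 9 catecholamine pathway genes in each Purkinje pool, on a log axis after adding 0.01; blue points are pool 1, orange points pool 2, black bars the mean of the pools, and the dashed line a TPM of 1. Th, Pts and Qdpr lie between 18.2 and 35.9, Maoa just above 1, and Dbh and Slc6a2 at 0 in both pools.

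Th (ENSMUSG00000000214.6, chromosome 7, 142892752 to 142931128, minus strand) had TPM values of 31.1 (pool 1) and 20.9 (pool 2), with a mean of 26.0 ± 7.21 (SD, n = 2). It had 2182 expected counts in pool 1 (exact Poisson 95% interval 2091 to 2276) and 1262 in pool 2 (1193 to 1334). Both pools therefore held Th transcript. The intervals cover counting error only and are of counts not scaled for library size, so they do not compare the pools. By mean TPM, Th ranked 1233 among protein-coding genes, at percentile 94.3, with percentiles of 95.2 in pool 1 and 93.2 in pool 2. No stretch of 31 bases of Th-201 was found in a transcript of another gene. In pools of cells, fewer cells with Th and less Th RNA per cell cannot be told apart, so the level is an average over 30 cells.

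**Figure D2:**
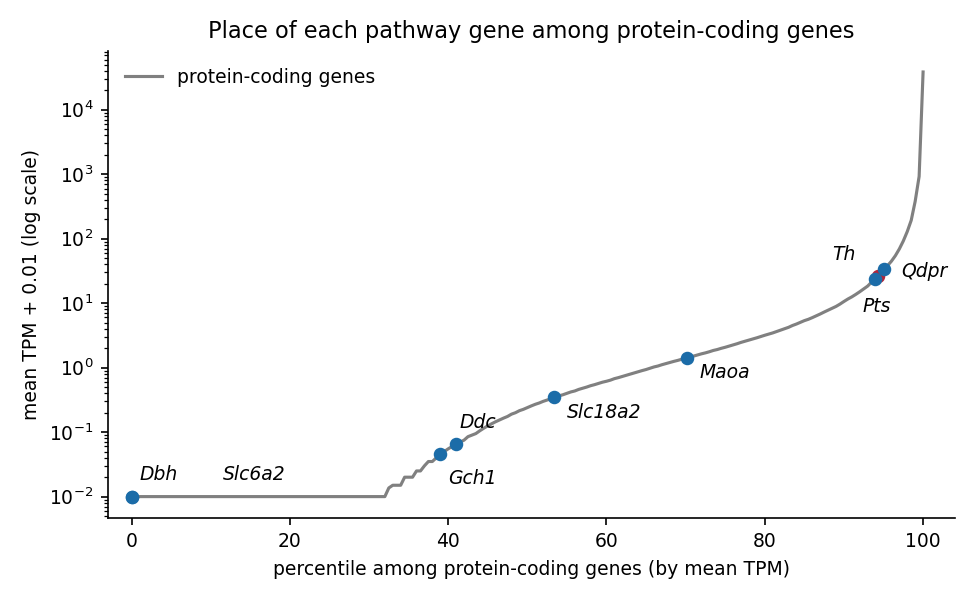
Mean TPM of the 2 pools plus 0.01, on a log axis, against the percentile among 21474 protein-coding genes (grey line); the red point is Th and the blue points are the other members. Th, Pts and Qdpr sit together between percentiles 93.9 and 95.1, Maoa at 70.2 and Slc18a2 at 53.4, and Dbh and Slc6a2 share the point at 0.

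The enzymes after Th in the pathway were near or at 0. Ddc (ENSMUSG00000020182.12, chromosome 11, 11814101 to 11898144, minus strand) had 4 counts in pool 1 (exact Poisson 95% interval 1.09 to 10.2) and 0 in pool 2, with TPM values of 0.11 and 0. Those 4 counts were all assigned to Ddc-206, a non-coding processed transcript, and the coding transcripts of Ddc had 0 counts in both pools. Dbh (ENSMUSG00000000889.8, chromosome 2, 27165233 to 27183200, plus strand) had 0 counts in both pools. A floor of 3 counts would put Dbh at 0.0301 TPM in pool 1 and 0.0350 in pool 2, and the exact Poisson 95% upper limit of 3.69 counts would put it at 0.0370 and 0.0430. A Dbh transcript below about those levels was not detectable at this depth.

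Per transcript length, Th was at least 807-fold higher than the coding transcripts of Ddc in pool 1 and at least 467-fold higher in pool 2, taking 3 counts in each library as the floor. These bounds set the measured Th count over that floor and are not 95% limits. The pool 1 bound against Ddc also depends on the assignment of all 4 Ddc counts to Ddc-206. That assignment was not firm. The authors' posterior mean TPM gave Ddc-206 23.2% of the gene in pool 1 and spread the rest over the other transcripts, coding ones among them. Against Dbh, Th was at least 1031-fold higher in pool 1 and at least 597-fold higher in pool 2, on the same floor. With the non-coding counts included, the ratio of Th over Ddc in pool 1 was 273 (95% interval from an exact binomial of 106 to 1002). Th transcript was thus far above that of both next steps of the pathway in each pool. The ratios compare RNA and carry no information on protein.

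The cofactor genes were split. Gch1, GTP cyclohydrolase, which starts biopterin synthesis (ENSMUSG00000037580.9, chromosome 14, 47153895 to 47189413, minus strand), had 2 counts in pool 1 and 5 in pool 2, with TPM values of 0.02 and 0.05. Th was higher than Gch1 by a ratio of 1688 in pool 1 (95% interval 467 to 13940) and of 390.4 in pool 2 (167 to 1204). Both intervals are wide because they rest on so few Gch1 counts.

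Pts, 6-pyruvoyl-tetrahydropterin synthase, acts after Gch1 (ENSMUSG00000032067.5, chromosome 9, 50521617 to 50528724, minus strand). Its TPM values were 18.2 for pool 1 and 29.1 for pool 2 (23.6 ± 7.65, SD, n = 2) from 693 and 951 counts. Th was above Pts in pool 1, with a ratio of 1.70 (1.56 to 1.86), and below it in pool 2, with 0.718 (0.660 to 0.782). The order of these genes therefore differed between the pools, and the gap of their means, 2.32, was smaller than the larger SD, 7.65.

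Qdpr, dihydropteridine reductase, which regenerates the used cofactor (ENSMUSG00000015806.8, chromosome 5, 45434021 to 45450236, minus strand), was the highest of the 9 genes. Its TPM was 35.9 in pool 1 and 31.6 in pool 2 (33.8 ± 3.05, SD, n = 2), from 1899 and 1439 counts. It lay above Th in both pools, with a ratio of Th over Qdpr of 0.864 in pool 1 (0.812 to 0.919) and 0.660 in pool 2 (0.611 to 0.712). The mean log2 ratio was -0.41 ± 0.28 (SD, n = 2), and the gap of the mean TPM values, 7.83, was slightly larger than the larger SD, 7.21. An antisense gene annotated over Qdpr, Gm42413, shares 20.1% of the 31-base stretches of Qdpr-201 and was not in the tables used here. The sources used here do not say whether counting used strand, so reads within those shared stretches cannot be told apart between that gene and Qdpr.

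Storage and uptake genes were low. Slc18a2 (ENSMUSG00000025094.7, chromosome 19, 59260896 to 59296012, plus strand) had 57 counts in pool 1 and 38 in pool 2, with TPM values of 0.38 and 0.29 (0.335 ± 0.0636, SD, n = 2). It was thus present in both pools at counts clear of 0, but Th was 82.0 times as high in pool 1 (63.0 to 109) and 71.1 times as high in pool 2 (51.5 to 101). The antisense gene that overlaps its start, Gm29261, had 0 counts in both pools. Slc6a2 (ENSMUSG00000055368.9, chromosome 8, 92960079 to 93001667, plus strand) had 1 count in each pool and was listed at a TPM of 0.00. Its level was at the limit of what these libraries can show.

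Of the breakdown step, Maoa (ENSMUSG00000025037.6, chromosome X, 16619698 to 16687818, plus strand) had TPM values of 1.28 and 1.56 (1.42 ± 0.198, SD, n = 2). Its counts were 212 and 222. Th was 24.2 times as high in pool 1 (21.0 to 28.0) and 13.4 times as high in pool 2 (11.6 to 15.5). The order of mean levels was Qdpr, Th, Pts, Maoa, Slc18a2, Ddc, Gch1, with Dbh and Slc6a2 last at a listed TPM of 0. Of the neighbours in that order, Th and Pts, Ddc and Gch1, and Dbh and Slc6a2 did not differ beyond their spread. Gch1 and Dbh, with 2 and 5 counts against 0 and 0, were too close to the floor to be ordered. The gaps from Qdpr to Th, Pts to Maoa, Maoa to Slc18a2 and Slc18a2 to Ddc were larger than the SD.

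The Th signal lay on 1 transcript. All 2182 counts of pool 1 and all 1262 of pool 2 were assigned to Th-201, a coding transcript of 1829 bases whose first base is at position 142900014. The other 5 annotated transcripts had 0 counts in both pools. Th-202 and Th-206, both coding, start 31114 and 31106 bases further upstream, and Th-203, Th-204 and Th-205 are annotated for nonsense-mediated decay. Th-202 skips the exon 2 printed in capitals above, and Th-206 joins that exon to another first exon. The authors' posterior mean TPM, which spreads some abundance over transcripts with no counts, gave Th-201 98.5% of the gene in pool 1 and 97.8% in pool 2. Qdpr, with 7 annotated transcripts, likewise had all of its counts on Qdpr-201.

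**Figure D3:**
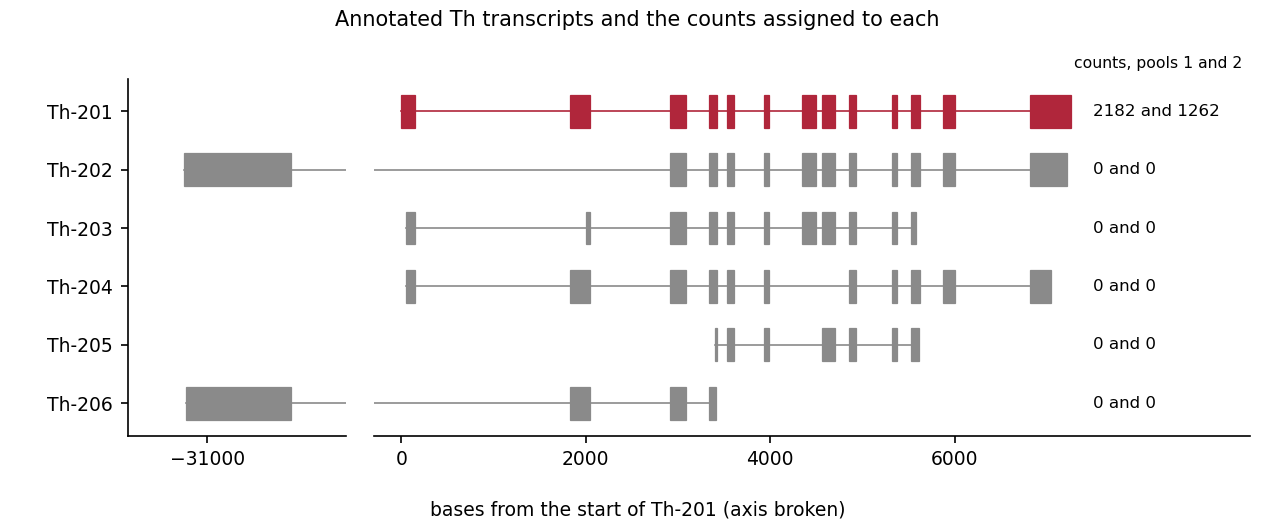
Exons (boxes) of the 6 annotated Th transcripts by distance in bases from the start of Th-201, 5′ to 3′ from left to right with a broken axis, and the expected counts assigned to each in pools 1 and 2. All counts, 2182 and 1262, lie on Th-201 (red), and Th-202 and Th-206 start 31114 and 31106 bases upstream.

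The 2 libraries were then compared gene by gene with a two-sided exact binomial test on the counts, scaled by TMM and adjusted by Benjamini-Hochberg over all 14495 genes with at least 10 counts in total. That test compares these libraries, not conditions. Over all genes it called 65.8%, with 32.4% higher in pool 1 and 33.3% higher in pool 2, so a call is common. Of the 9 members, 5 had enough counts to be tested and 3 were called, a share close to that of all genes. Th was lower in pool 2 by a log2 count ratio of -0.85 (exact binomial test, adjusted p = 5.57e-63) and Qdpr by -0.46 (adjusted p = 5.58e-19, same test). Pts was higher in pool 2, with a log2 count ratio of 0.40 (exact binomial test, adjusted p = 1.17e-07). Th and the cofactor gene Pts thus differed in opposite directions under TMM, but in the same direction under spike-in totals. The log2 ratio was -0.64 for Slc18a2 (adjusted p = 0.0592 by the exact binomial test) and 0.01 for Maoa (adjusted p = 0.981), and neither passed the threshold of 0.05.

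Among the 5 tested members, the direction of the ratio depended on the scaling for Pts and Maoa. Their log2 count ratios were negative only under spike-in totals. For Th, Qdpr and Slc18a2 the ratio was negative under each scaling tried. That of Th ran from -0.65 with total counts to -1.62 with spike-in totals. The median log2 ratio of detected genes was 0.03 with TMM, 0.23 with total counts as the scale and -0.74 with spike-in totals, and the share of called genes that were higher in pool 2 was 50.7%, 64.2% and 14.3% respectively. Under total counts 66.4% of all tested genes were called (23.8% higher in pool 1 and 42.6% higher in pool 2), and under spike-in totals 75.9% (65.1% and 10.9%). Under spike-in totals all 5 tested members were called lower in pool 2, including Pts with -0.37 and Maoa with -0.76. Relative to the median of detected genes, which removes the scaling, Th was at -0.88, Qdpr at -0.49, Slc18a2 at -0.68, Maoa at -0.02 and Pts at 0.37.

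**Figure D4:**
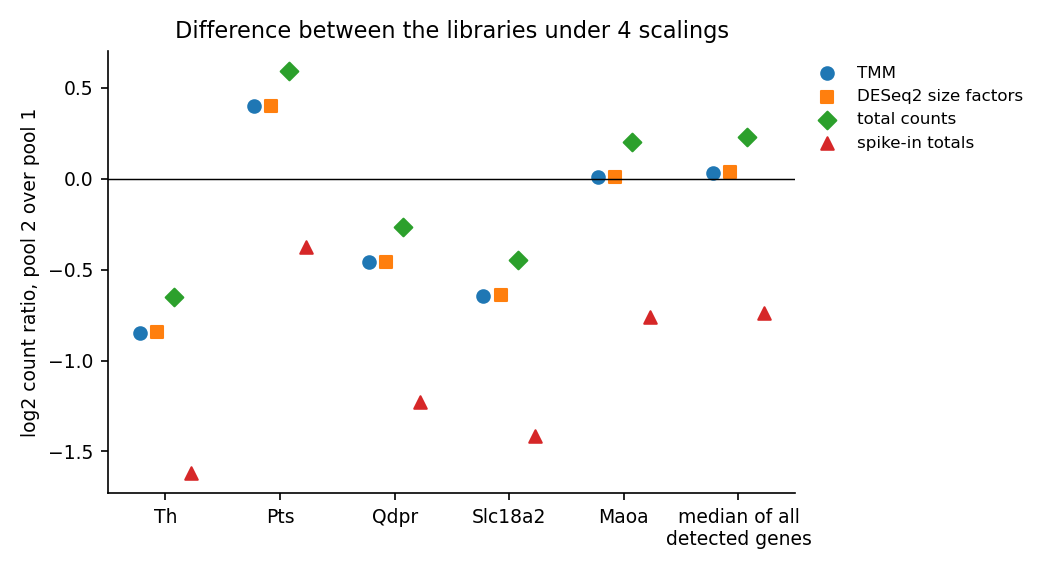
Log2 count ratio, pool 2 over pool 1, of the 5 tested members and the median of all detected genes under 4 scalings (circles TMM, squares DESeq2 size factors, diamonds total counts, triangles spike-in totals). Th lies below the median under each scaling, at -0.85 under TMM, and Pts lies above it, at 0.40 under TMM.

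Some other measures moved with the pools as well, although the sum of the Purkinje markers hardly did. Purkinje markers, 13 of 14 detected in both, summed to 87469 TPM in pool 1 and 87811 in pool 2, led by Gng13 and Pcp4. Their TMM log2 count ratios had a median of -0.34, and 1 of the 14, Lhx5 with -1.15, lay below that of Th. Under TMM 12 of the 14 were called higher in pool 1 and 1 higher in pool 2, where 32.4% and 33.3% of all genes were. The numbers were 10 and 3 with total counts (23.8% and 42.6% of all genes) and 14 and 0 with spike-in totals (65.1% and 10.9%). Bergmann glia and astrocyte markers, 11 of 12 detected, summed to 2498 in pool 1 and 4427 in pool 2, led by Slc1a3 and Gja1, with a median log2 ratio of 0.58. Red blood cell markers, 4 of 5 detected and led by the globins Hbb-bs and Hba-a1, summed to 2453 and 16.3. No marker of these lists was at 0 counts in both pools. The label of Purkinje cells therefore held, with glial and blood RNA also present, and the part of these differences in the ratios of Th, Qdpr and Pts was not tested.

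The markers of catecholamine neurons were at 0 or under a TPM of 1. Of 14 such genes, among them the transporters Slc6a3, Slc6a2 and Slc18a2 and the transcription factors Phox2a and Pitx3, 0 reached a TPM of 1 in both pools and 8 had 0 counts in both, among them Dbh, Slc6a3, Pitx3, Phox2a, Hand2, Gata3 and Foxa2. Together they summed to 2.02 TPM in pool 1 and 1.30 in pool 2, of which Ret, a receptor for glial cell line-derived growth factors, was the highest with 0.99 and 0.62, from 290 and 157 counts. The TPM of Th alone, 31.1 and 20.9, was far above the sum of these markers in each pool.

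The rest of the pathway was read from 8 further lists with 63 genes, of which 23 were detected in both pools and 17 had 0 counts in both. In the cofactor and synthesis list, 4 of 6 were detected. Gchfr, the regulatory protein that binds the product of Gch1, had TPM values of 57.7 and 61.3 (59.5 ± 2.55, SD, n = 2). It lay above Th in both pools, and the ratio of Th over Gchfr was 0.538 and 0.340. So the regulator's transcript was abundant where that of its target enzyme was almost absent. Pcbd1 and Pcbd2, pterin dehydratases, had TPM values of 2.77 and 6.60, and of 5.86 and 5.78. Spr, sepiapterin reductase, had 1.53 and 1.48. Pnmt, which makes adrenaline, had 0 counts in both pools. Of this list 5 were tested and 3 called under TMM, a share near the 65.8% of all genes. Of those 2 were higher in pool 1 and 1 in pool 2, against 4 and 0 under spike-in totals, where 65.1% and 10.9% of all genes were called.

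The tryptophan hydroxylases, which make the precursor of serotonin and use the same cofactor, were not detected: Tph1 had 0 counts in both pools, and Tph2 had 0 and 4. Of the other storage and uptake genes 0 of 5 were detected, with Slc18a1, Slc6a3, Slc22a2 and Slc22a3 at 0 counts in both pools and Slc29a4 at 3 and 7. Among 3 genes of tyrosine entry, only Slc3a2, the heavy chain shared by amino acid transporters, was detected, with TPM values of 4.63 and 8.67. Its light chains Slc7a5 (0.40 and 0.74) and Slc7a8 (0.38 and 0.50) stayed under 1. Of the tyrosine entry genes 2 of 3 were called under TMM, both higher in pool 2, where 65.8% of all genes were called and 33.3% in that direction. Under spike-in totals 0 were higher in pool 2 and 1 was higher in pool 1 (10.9% and 65.1% of all genes).

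Breakdown genes were better covered, with 4 of 6 detected. The aldose reductase Akr1b3 had TPM values of 31.4 and 23.2, and the aldehyde dehydrogenase Aldh1a1 had 9.64 and 16.7. Maob, the other monoamine oxidase, had 2.56 and 2.07. Akr1b3 was thus at the level of Th, while both monoamine oxidases were below a TPM of 3. Of the 6, 4 were called under TMM, near the 65.8% of all genes. The calls were 3 for pool 1 and 1 for pool 2 as the higher library, against 6 and 0 under spike-in totals (65.1% and 10.9% of all genes).

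**Figure D5:**
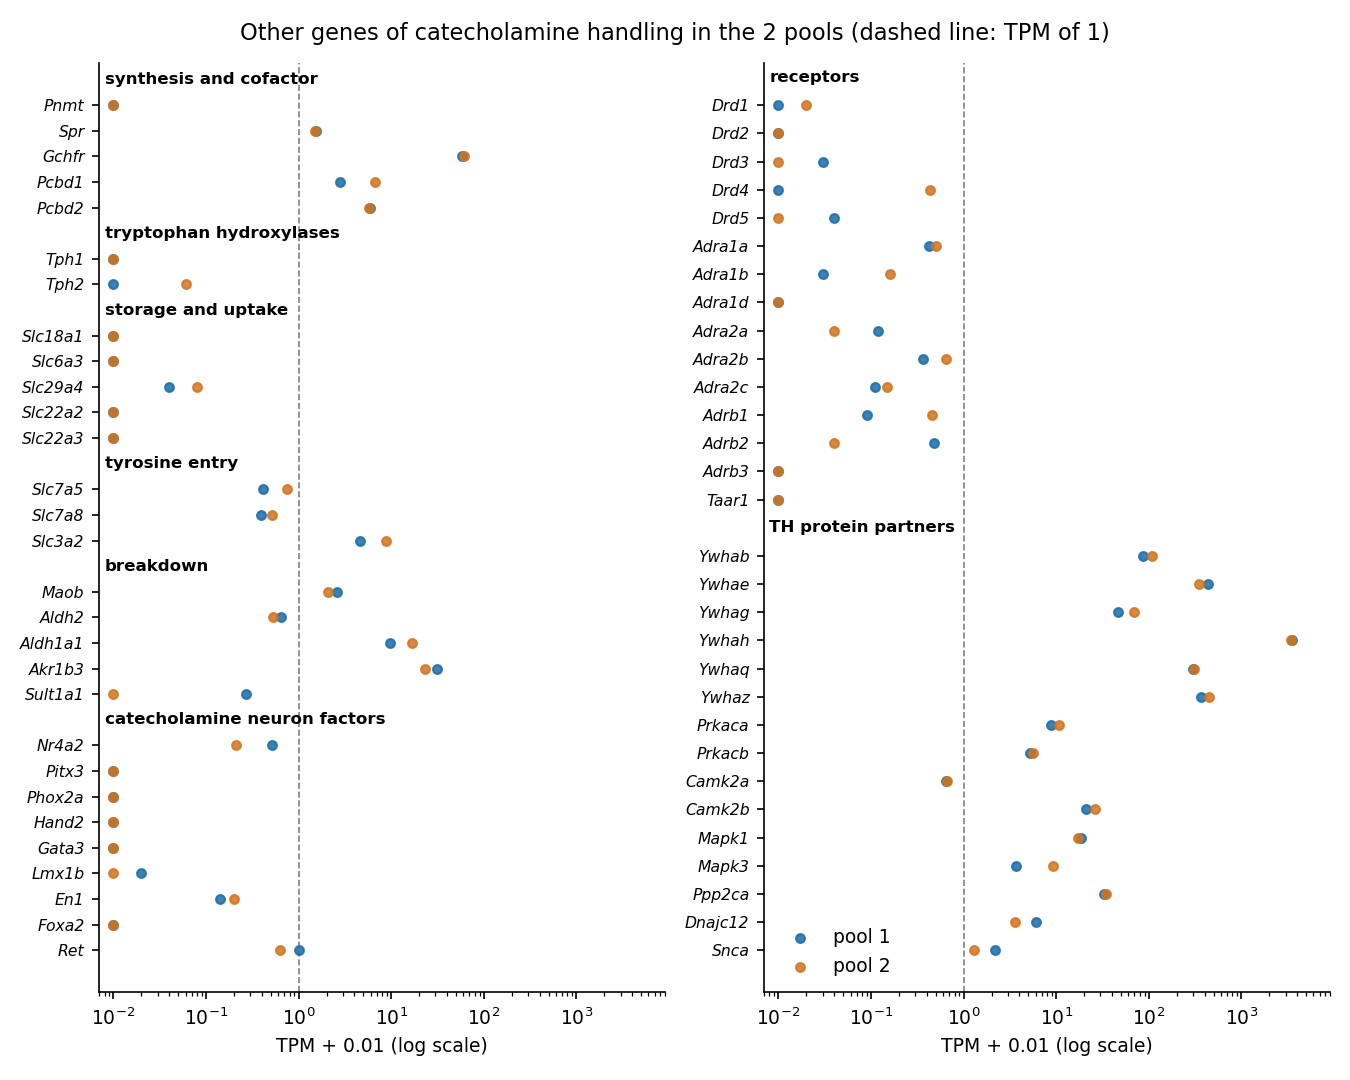
TPM plus 0.01, on a log axis, of 59 other genes of catecholamine handling in pool 1 (blue) and pool 2 (orange), grouped by role, with a dashed line at a TPM of 1. Genes that bind or modify the TH protein lie mostly to the right of the line, and receptors and catecholamine neuron factors to its left.

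Receptors for catecholamines were all under a TPM of 1 in both pools (0 of 15 detected), with Drd2, Adra1d, Adrb3 and Taar1 at 0 counts in both. The highest were Adra2b, with 0.35 and 0.63, and Adra1a, with 0.41 and 0.49. Of the 8 receptors tested, 2 were called higher in pool 1 and 4 in pool 2 under TMM (32.4% and 33.3% of all genes), against 3 and 2 under spike-in totals (65.1% and 10.9%). No receptor had more than 85 counts in a pool. Of 10 transcription factors and receptors of catecholamine neurons, 0 were detected, with Nr4a2, a factor known to act on the Th gene, at 0.51 and 0.20.

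Genes for proteins that bind, phosphorylate, dephosphorylate or fold tyrosine hydroxylase were common in both pools, 14 of 15 being detected. The 14-3-3 proteins, which bind the phosphorylated enzyme, led the list: Ywhah had TPM values of 3555 and 3392, Ywhaz 366 and 451, and Ywhae 436 and 347. The gene below 1 was Camk2a, with 0.64 and 0.65. Dnajc12, a co-chaperone of the aromatic amino acid hydroxylases, had 6.09 in pool 1 and 3.60 in pool 2. Its log2 count ratio was -1.06 under TMM (exact binomial test, adjusted p = 3.23e-13), the same direction as Th under each of the 4 scalings. Dnajc12 was named after its values were seen, and calls within the list went both ways under each scaling given below. These partners act on many proteins besides tyrosine hydroxylase. Of the 15, 9 were called higher in pool 1 and 3 in pool 2 with TMM, where 32.4% and 33.3% of all genes were. The numbers were 6 and 6 with total counts (23.8% and 42.6% of all genes) and 14 and 1 with spike-in totals (65.1% and 10.9%).

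Nearest to Th in level over the 2 pools, by Euclidean distance of log2(TPM + 1) among protein-coding genes, were Tmem60 (29.7 and 22.0, distance 0.0986), Ddx24 (28.9 and 21.4, distance 0.105), Golph3 (28.8 and 20.2, distance 0.116), Dnm1l (30.7 and 23.1, distance 0.138) and Akr1b3 (distance 0.148). Those are a transmembrane protein, an RNA helicase, a Golgi protein, a mitochondrial fission protein and the aldose reductase named above. With 2 pools the measure says only that their levels were alike.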

How the data were processed

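RNA of 2 pools of laser-captured Purkinje cells was amplified as cDNA (SMARTer Ultra Low kit) and read on HiSeq machines, per the labels. Per a text file that accompanies each deposited sample, the authors used build mm10 and GENCODE M4 and made tables of expected counts, estimated reads that need not be whole. No aligner or quantifier is named (not given in the sources used here). The deposited TPM and the deposited FPKM are scaled by length and depth, and the deposited transcript tables give each transcript's percent of the TPM of its gene, per the file headers. Reads of the hybrid were set against a C57BL/6 reference, and allele bias was not tested.

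The totals over Ensembl genes were 31437230 and 28591242 expected counts for pools 1 and 2. Rows with numeric identifiers (26248 rows, 0.000412% and 0.000194% of counts) name no gene and were left out. GENCODE M21, a later release on that build, gave symbols and coordinates. Detection meant a TPM of at least 1. Counts were rounded and compared between the libraries, over genes with at least 10 counts in total, with a two-sided exact binomial test (scipy 1.17.1) given TMM totals (edgeR 4.0.16), adjusted by Benjamini-Hochberg with a threshold of 0.05. The script was checked on simulated data. Intervals are exact at 95%, with a floor of 3 counts, and cover counting error only. DESeq2 1.42.0 size factors, total counts and spike-in totals were alternatives.

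The members and lists were chosen with earlier results of these data known. Named genes were all 9 members, the 3 highest detected genes of each other list (2 for marker lists), genes at 0 counts in both pools, and the 5 protein-coding genes nearest to Th. Spr, Tph2, Slc29a4, Slc7a5, Slc7a8, Maob, Adra2b, Adra1a, Nr4a2, Ret, Camk2a, Dnajc12 and Lhx5 fall outside that rule and were named after their values were seen. A few list genes are left out of the text and are not reported here. Of the 17 lists with 147 genes, the markers not reported above summed to these TPM values in pools 1 and 2: granule cells 46.5 and 56.0, interneurons 25.5 and 22.1, oligodendrocytes 37.7 and 54.3, microglia 5.39 and 3.89, and endothelial and mural cells 21.4 and 15.3.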

Additional observations from a re-analysis of the deposited data

How the results depend on the processing

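The count of detected members ran from 3 at a TPM of at least 5 to 5 at a TPM of at least 0.1, or at 10 counts in both pools. It was 4 in either pool alone. The mean TPM of Th was 48.5 when TPM was rescaled over nuclear protein-coding genes, against 26.0 as deposited, and 20.9 and 31.1 when the other pool was left out. The mean log2 ratio of Th over Qdpr lay between -0.41 and -0.39 under the other units and pseudocount tried, and was -0.60 in pool 2 and -0.21 in pool 1 alone. The number of members called between the libraries rose from 3 under TMM, which called 65.8% of all tested genes, to 5 under spike-in totals, which called 75.9%. There the ratio of Pts was -0.37 (exact binomial test, adjusted p = 6.78e-07) and that of Maoa -0.76 (adjusted p = 1.3e-07). Both signs were opposite to those under TMM, where Maoa had no clear direction (0.01, adjusted p = 0.981, same test). Against TMM, spike-in totals lower the log2 ratio of each gene by the same amount. Spike-ins held 0.211% of the counts of all rows in pool 1 and 0.411% in pool 2. What lay behind that difference was not tested. Slc18a2 passed the threshold under spike-in totals with -1.41 (exact binomial test, adjusted p = 5.61e-06). The share of Th on Th-201 was 98.1% by posterior mean TPM, against 100% by TPM and counts. The other pathway lists had 33 detected genes at a TPM of at least 0.1 and 16 at a TPM of at least 5, against 23. No paired analysis was possible because there is 1 group.

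Depth limits the genes near 0: Ddc, Gch1 and Slc6a2 rest on 5 counts or fewer in each pool, and absence cannot be claimed for Dbh below the floor of 3 counts. The result has 2 pools of unstated independence, no other cell type for comparison and no protein measurement.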
